A study of Arabidopsis thaliana with 9 samples.

Results

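RAP2.6 (AT1G43160) and RAP2.6L (AT5G13330) are sister genes of the AP2/ERF superfamily, and their transcript levels were followed across 3 genotypes of Arabidopsis seedlings. The pair comprised 2 genes, each with 1 probe set, among 14149 genes with a named probe set and 22746 probe sets tested. Neither probe set had a gene name in the platform annotation. Both were named through the gene identifiers in the study's own list of genes changed in cyp78a5,7 or amp1-13, in its section on cyp78a5,7, so the members were in effect selected on the comparison of cyp78a5,7 with wild type. Every value below that uses the cyp78a5,7 arrays is therefore given for these genes as a description, without a test. The comparison of amp1-13 with wild type was tested, but this test is not free of the selection: it shares the 3 wild type arrays, its earlier results were known, and the list also has a section on amp1-13, which was at hand only in part and names neither gene in that part.

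Proteins of this superfamily bind DNA through the AP2/ERF domain and mostly act at the promoters of stress and hormone response genes. Both sisters belong to group X of the ERF family. RAP2.6 is known as a gene induced by jasmonate, wounding, abscisic acid and salt, whereas RAP2.6L is known for its part in shoot regeneration from tissue explants and in the healing of cut stems. Earlier work tied RAP2.6L to the enlarged shoot meristem of amp1 mutants, which is why its level in cyp78a5,7 was of interest. With GUS reporters, the study itself reported raised RAP2.6L expression in cyp78a5,7 seedlings.

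The 9 Affymetrix ATH1 arrays covered 3 biological replicates each of cyp78a5,7, amp1-13 and wild type, all in the Col-0 ecotype. The cyp78a5,7 plants carry insertions in a pair of related cytochrome P450 genes, amp1-13 is a strong allele of the putative carboxypeptidase gene AMP1, and the amp1-13 arrays had served in an earlier study of a small molecule. Each mutant was represented by 1 line. Total RNA came from whole seedlings at 10 days, grown in multi-well plates in liquid Murashige and Skoog medium with 1% sucrose and 1% DMSO at 26 °C and 16 h of light, so that the controls shared the solvent. In whole seedlings, fewer cells that express a gene and less RNA per cell cannot be told apart.

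The deposited values are MAS5 signals, which summarize the probes of a probe set on a linear scale. Median signals lay between 31.1 and 38.9 on the 9 arrays, and arrays of 1 genotype correlated at 0.964 to 0.991 across probe sets. Differences are given as log2 fold changes after an offset of 16 had been added to the signal and the arrays had been quantile normalized. Between 34.5% and 38.4% of the probe sets on an array lay under this offset, where the size of a change depends on it and where detection is uncertain, because detection calls were not used here. Of the shoot marker list 3 of 6 genes had a named probe set, with summed signals of 3332 to 4254 in cyp78a5,7, 5258 to 6627 in amp1-13 and 2219 to 3168 in wild type. Of the root marker list 2 of 8 genes could be named, with sums of 99.6 to 329.2, 66.1 to 114.4 and 71.5 to 79.6 in the same genotypes, and none of these 5 markers was at 0. CA1 and LHCB2.3 among the shoot markers and NRT2.1 among the root markers were named only through the study's list of changed genes. The sums are therefore not an independent check of organ content. RCA, named by the annotation, had mean signals of 2458, 3529 and 2289 in cyp78a5,7, amp1-13 and wild type. EXPA7, also named by the annotation, had 53.35, 61.21 and 46.53. Of the 3 mutated genes, AMP1 and CYP78A5 had no named probe set. CYP78A7 was named only through the study's list of changed genes. It had a signal of 27.8 ± 8.29 in cyp78a5,7, 24.3 ± 10.6 in amp1-13 and 11.2 ± 1.65 in wild type (SD, n = 3 each). It was thus not lower in cyp78a5,7, whereas RT-PCR in the study detected no CYP78A7 fragment in the cyp78a7 single mutant. Since the place of its probes relative to the insertion was not given, and its wild type signals lay under the offset, CYP78A7 does not check the labels.

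RAP2.6 was strongly raised in cyp78a5,7 and lay below the median signal of the array on every array of the other genotypes. Its signal was 373, 995 and 2117 on cyp78a5,7 arrays 1 to 3, 34.2, 21.6 and 12.0 on the amp1-13 arrays, and 26.2, 1.39 and 2.35 on the wild type arrays. The lowest cyp78a5,7 array was 14.2-fold above the highest wild type array and 10.9-fold above the highest amp1-13 array, so that cyp78a5,7 overlapped with neither. Of all probe sets, 14% had every cyp78a5,7 array above all wild type arrays. The share with every cyp78a5,7 array above all amp1-13 arrays was not computed. By contrast amp1-13 and wild type overlapped, since wild type array 1 lay above amp1-13 arrays 2 and 3. The order of the mean signals was thus 1162 ± 884 in cyp78a5,7, 22.6 ± 11.1 in amp1-13 and 9.98 ± 14.0 in wild type (SD, n = 3 each), with the lower levels not separated beyond their spread.

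RAP2.6L was raised in both mutants and by a much smaller factor. Its signal was 58.3, 105 and 137 on cyp78a5,7 arrays 1 to 3, 83.6, 84.8 and 78.4 on the amp1-13 arrays, and 30.7, 24.9 and 26.9 on the wild type arrays. All 6 mutant arrays lay above all wild type arrays. The lowest array was 1.9-fold above the highest wild type array for cyp78a5,7 and 2.55-fold for amp1-13, whereas the mutants overlapped, with cyp78a5,7 array 1 below and arrays 2 and 3 above every amp1-13 array. Mean signals were 100.2 ± 39.6 in cyp78a5,7, 82.3 ± 3.44 in amp1-13 and 27.5 ± 2.95 in wild type (SD, n = 3 each). Groups that did not overlap were common, as 14% of all probe sets had every cyp78a5,7 array and 15.5% every amp1-13 array above all wild type arrays.

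**Figure D1:**
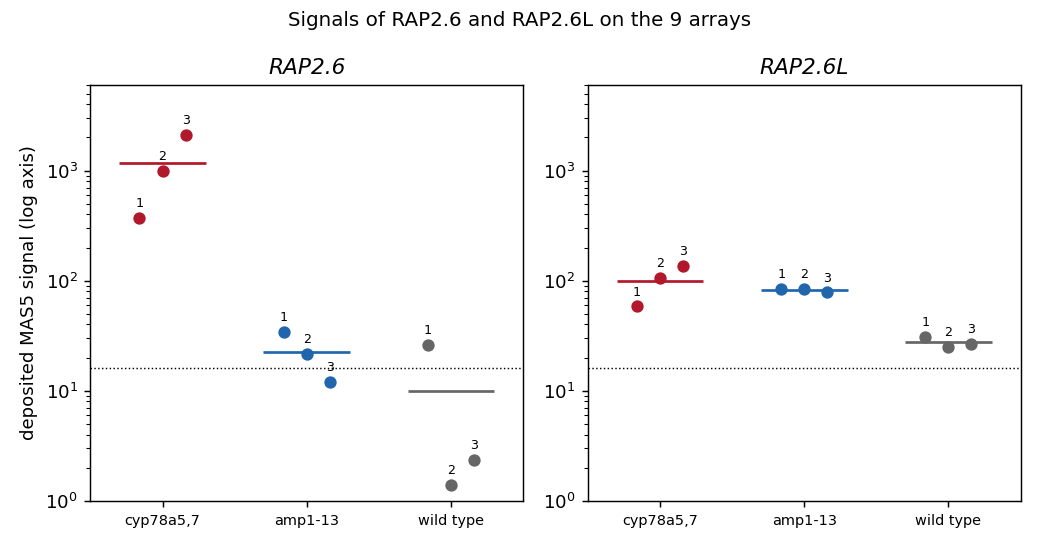
Deposited MAS5 signals (log axis) of RAP2.6 and RAP2.6L in cyp78a5,7, amp1-13 and wild type. Points are single arrays with their replicate numbers, horizontal lines are means, and the dotted line marks the offset of 16. RAP2.6 is high on the cyp78a5,7 arrays alone (373 to 2117), whereas RAP2.6L is above wild type on all 6 mutant arrays.

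In amp1-13 the sisters gave different results in the test against wild type. RAP2.6L had a normalized log2 value of 6.58 in amp1-13 and 5.48 in wild type, which is a difference of 1.10 (SE 0.24, 2.14-fold, limma adjusted p = 0.0235). RAP2.6L thereby rose and was called, which required both 2-fold and an adjusted p below 0.05. It was among the 1.8% of probe sets called higher in amp1-13, while 0.796% were called lower. RAP2.6 had 5.19 in amp1-13 and 4.61 in wild type, a difference of 0.58 (SE 0.61, 95% interval -0.81 to 1.97, limma adjusted p = 0.612), and was not called. This interval includes the change measured for RAP2.6L, and the difference between the responses of the 2 genes was not tested. Among all probe sets, the rise of RAP2.6L ranked 395th and that of RAP2.6 1515th in amp1-13.

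The call of RAP2.6L in amp1-13 was close to its thresholds. Without any 1 of the 6 amp1-13 and wild type arrays it was lost, with log2 fold changes of 0.99 to 1.20 and adjusted p of 0.0408 to 0.0841 from limma. All 3 arrays of each of these genotypes were nevertheless tightly grouped, with a coefficient of variation of 4.18% in amp1-13 and 10.7% in wild type, against 39.5% in cyp78a5,7. The fit shared 1 estimate of spread over the genotypes. When only amp1-13 and wild type were fitted, the log2 fold change was 1.09 with an SE of 0.12 (adjusted p = 0.00685 from limma). Without cyp78a5,7 replicate 1 it was 1.10 with an SE of 0.13 (adjusted p = 0.00431 from limma). Without cyp78a5,7 replicate 2 the SE was 0.25 (adjusted p = 0.0399 from limma), and without replicate 3 it was 0.19 (adjusted p = 0.0138 from limma). The summed shoot markers were also higher in amp1-13 than in wild type, and their part in the rise of RAP2.6L was not tested.

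**Figure D2:**
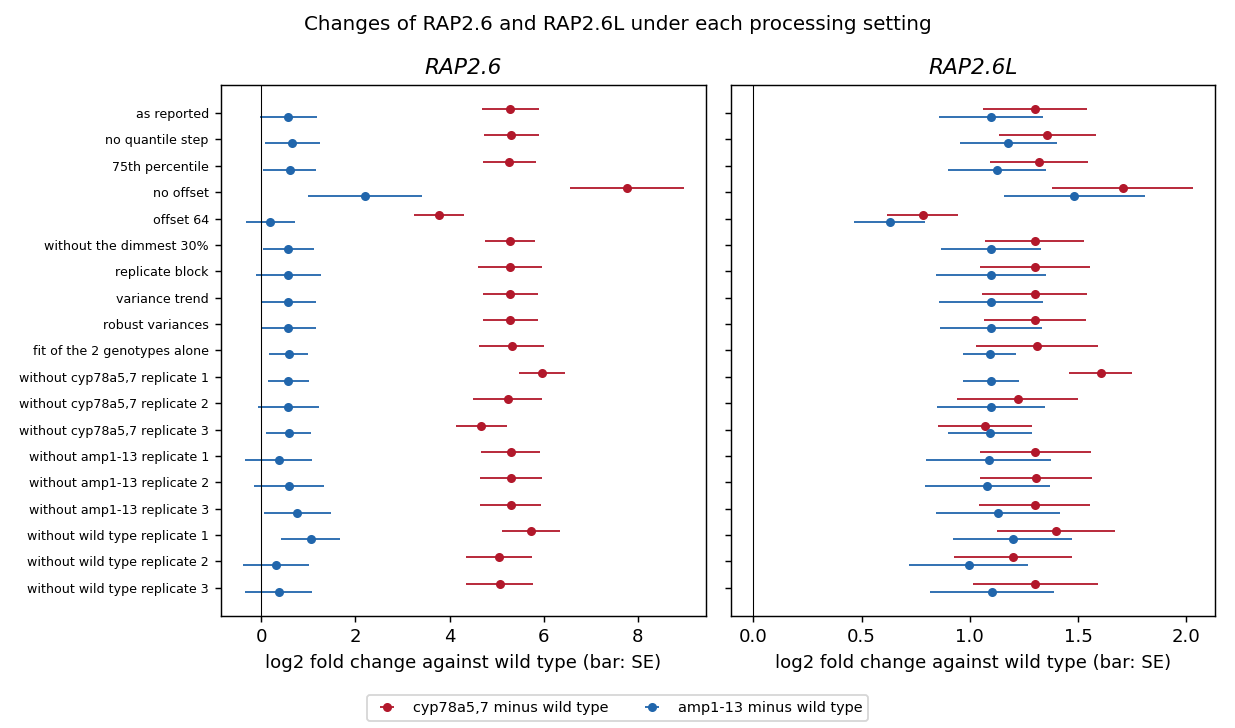
Log2 fold changes of RAP2.6 and RAP2.6L against wild type (horizontal axes, bars are SE from limma) in cyp78a5,7 and amp1-13, as reported and under each alternative setting (rows). The offset moves the size most, from 3.78 with an offset of 64 to 7.76 with no offset for RAP2.6 in cyp78a5,7, and the change of RAP2.6L is above 0 in both mutants in every row.

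In cyp78a5,7 the fitted log2 fold change was 5.29 (SE 0.61, 39.1-fold) for RAP2.6 and 1.30 (SE 0.24, 2.46-fold) for RAP2.6L. For RAP2.6 it was 5.96 without cyp78a5,7 replicate 1 and 4.68 without replicate 3. The genes had been listed on this comparison of the same arrays, from the study's own RMA values. The rise of RAP2.6 ranked 2nd of all probe sets and that of RAP2.6L 659th, in a comparison in which 4.37% of the probe sets were called higher and 2.64% lower. The wild type signals of RAP2.6 lay under the offset on arrays 2 and 3, so its fitted fold depends on that offset. Between the mutants, RAP2.6 was higher in cyp78a5,7 than in amp1-13 by 4.71 (SE 0.61) on the log2 scale, and by 5.38 and 4.10 without cyp78a5,7 replicates 1 and 3. The corresponding difference for RAP2.6L was 0.20 (SE 0.24) and was -0.02 without cyp78a5,7 replicate 3, so that no order of the mutants could be read from it.

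The sisters also varied together among the cyp78a5,7 seedlings. Both were highest on array 3 and lowest on array 1, with the highest array 5.68-fold above the lowest for RAP2.6 and 2.35-fold for RAP2.6L. Over the 995 probe sets called higher in cyp78a5,7, the median of this ratio was 1.76 and the 90th percentile 3.38, which RAP2.6 exceeded. Array 3 was the highest and array 1 the lowest for 41.4% of these probe sets and for 19.3% of all probe sets tested, so the array order was shared widely. Among the wild type arrays both genes were highest on array 1 and lowest on array 2. In amp1-13 RAP2.6 was highest on array 1 and RAP2.6L on array 2, by a small margin.

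Of the other 6 genes listed in group X, 3 had a named probe set, and 2 of these were called higher in cyp78a5,7 and none in amp1-13, where 4.37% and 1.8% of all probe sets were. RRTF1 (AT4G34410), a redox-responsive transcription factor gene, had signals of 1329, 1135 and 249 on the cyp78a5,7 arrays, 593, 117 and 130 on the amp1-13 arrays, and 60.9, 14.2 and 12.8 on the wild type arrays. Every mutant array was above every wild type array, a separation that 14% of all probe sets had in cyp78a5,7 and 15.5% in amp1-13. Its log2 fold change was 4.19 (SE 0.80) in cyp78a5,7 and 2.45 (SE 0.80, adjusted p = 0.0828 from limma) in amp1-13. In contrast to RAP2.6 and RAP2.6L, RRTF1 was highest on cyp78a5,7 array 1 and lowest on array 3. RRTF1 was named through the same list of changed genes, so its call in cyp78a5,7 is not independent evidence.

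The AT5G61890 probe set, named by the annotation, had signals of 54.9, 132 and 231 in cyp78a5,7, 11, 8.66 and 12.4 in amp1-13, and 12.3, 5.47 and 8.07 in wild type. It followed RAP2.6 in that only the cyp78a5,7 arrays stood apart, with array 3 the highest and array 1 the lowest. Of all probe sets, 14% were separated from wild type in this way, and 41.4% of those called higher in cyp78a5,7 had this array order. AT5G61890 rose by 2.45 on the log2 scale in cyp78a5,7 (SE 0.39, limma adjusted p = 0.0032), and its difference was 0.07 in amp1-13 (SE 0.39, limma adjusted p = 0.949). Its amp1-13 and wild type signals all lay under the offset of 16, so the size of these changes depends on it. AT2G33710 had signals of 33.5, 23.6 and 35.4 in cyp78a5,7, 39.3, 25.0 and 19.9 in amp1-13, and 13.9, 7.53 and 13.2 in wild type. Like RAP2.6L it lay above wild type on all 6 mutant arrays, a separation that 14% of all probe sets had in cyp78a5,7 and 15.5% in amp1-13. However, its log2 fold changes of 0.74 (SE 0.19, adjusted p = 0.0233) and 0.59 (SE 0.19, adjusted p = 0.0815 from limma) were under 2-fold. Every wild type signal of AT2G33710 lay under the offset of 16, so the size of these changes depends on the offset. Its mean deposited signals were 30.8, 28.1 and 11.6 in cyp78a5,7, amp1-13 and wild type. The other 3 listed genes of group X, among them ABR1, could not be named.

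**Figure D3:**
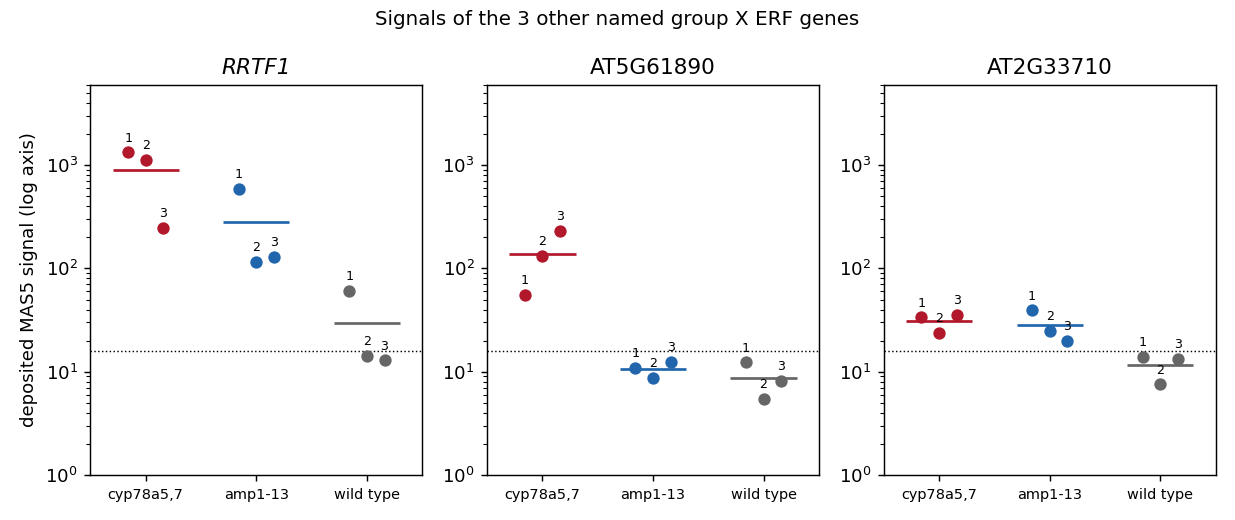
Deposited MAS5 signals (log axis) of the 3 further group X genes with a named probe set in cyp78a5,7, amp1-13 and wild type. Points are single arrays with replicate numbers, lines are means and the dotted line is the offset of 16. RRTF1 is above wild type on all 6 mutant arrays, AT5G61890 on the cyp78a5,7 arrays, and AT2G33710 lies between 7.53 and 39.3 throughout.

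Outside group X the ERF and DREB genes did not move one way. Of 39 listed genes 15 had a named probe set, 11 of them through the list of changed genes, and 4 were called higher and 5 lower in cyp78a5,7, against 4.37% and 2.64% of all probe sets. All 9 called genes were named through that list, which was chosen on these arrays, and none of the 4 genes named by the annotation was called, so the count is not independent evidence. The median log2 fold change of the 15 was 0.04 there and 0.11 in amp1-13, beside -0.02 and -0.01 over all probe sets. DDF1 and ERF1A, a pair of transcription factor genes, rose by 3.47 and 1.69 in cyp78a5,7, whereas ORA59, which links jasmonate and ethylene responses, the hypoxia-responsive HRE1 and the cold regulator CBF3 fell, with -2.19, -1.30 and -1.25. These 5 calls held when any single array was removed, but CBF3 was no longer called with an offset of 64. Of the remaining 4, CRF3 and DREB2A were called higher and ERF104 and ERF15 lower. DREB2A kept its call in all 9 fits with an array removed and lost it with an offset of 64, whereas the calls of the other 3 were each lost in 2 to 4 of the 9 fits.

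In amp1-13, ERF1A and ERF104 rose, by 1.64 and 1.10 (adjusted p = 0.0164 and 0.0244), and ORA59 and CBF3 fell, with -1.06 and -1.04 (adjusted p = 0.0178 and 0.00317 from limma). Over all probe sets 1.8% were called higher and 0.796% lower. All 4 genes were named through the list of changed genes, which was chosen on these arrays, so these calls are not independent evidence either. ERF1A, with signals of 271 ± 41.2 in cyp78a5,7, 270 ± 102 in amp1-13 and 74.7 ± 37.1 in wild type (SD, n = 3 each), was called higher in both mutants. ERF104 was called in opposite directions, with 90.7 ± 38.3 in cyp78a5,7, 462 ± 70.6 in amp1-13 and 213 ± 53.8 in wild type (SD, n = 3 each). All 4 amp1-13 calls were lost when wild type replicate 3 was removed. ERF1A was also lost without amp1-13 replicate 1, ERF104 without each of the 3 amp1-13 arrays, and ORA59 without amp1-13 replicates 1 and 2 and wild type replicate 1. With an offset of 64 the amp1-13 calls of ERF104, ORA59 and CBF3 were lost, and with no offset those of ERF104 and ORA59. Of the 11 further genes with a RAP2 name, ERF4, also known as RAP2.5, was the 1 with a named probe set, again through the list of changed genes. Its log2 fold changes of 0.82 in cyp78a5,7 (adjusted p = 0.00988) and 0.75 in amp1-13 (adjusted p = 0.0269 from limma) were under 2-fold.

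The HD-ZIP III factors, which pattern the shoot meristem and leaf polarity, were represented by PHV, the 1 of 5 listed genes that could be named. PHV had signals of 61.2, 58.7 and 57.3 on the cyp78a5,7 arrays, 97.9, 104 and 113 on the amp1-13 arrays, and 59.2, 87.2 and 75.8 on the wild type arrays. Every amp1-13 array was above every wild type array, as for 15.5% of all probe sets, while cyp78a5,7 overlapped with wild type. The log2 fold changes were -0.29 (SE 0.10, adjusted p = 0.0595) in cyp78a5,7 and 0.37 (SE 0.10, adjusted p = 0.0408 from limma) in amp1-13, both under 2-fold. Of 20 genes of wound response and shoot regeneration 3 could be named, and none was called in either mutant. Over all probe sets 4.37% were called higher and 2.64% lower in cyp78a5,7, and 1.8% and 0.796% in amp1-13. With only 3 genes, the lack of calls does not show that this group was unchanged. The stem cell gene CLV3 was among the 3, with mean signals of 2.59 in cyp78a5,7, 4.50 in amp1-13 and 0.65 in wild type, too dim for its change to be read.

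The genes whose pattern was most like that of each sister differed. Likeness was measured as Pearson's r of the normalized log2 values over the 9 arrays, among 1761 probe sets with 1 gene name and genotype means at least 1 apart, and it mostly reflects the 3 genotype levels that the arrays share. For RAP2.6 the 5 highest were TAT3, a tyrosine aminotransferase gene, AT5G05600, the glutathione S-transferase gene GSTU6, GCL1 and GSTU5, with r between 0.989 and 0.997. AT5G05600 had signals of 1688 ± 819 in cyp78a5,7, 104 ± 14.9 in amp1-13 and 60.6 ± 35.6 in wild type (SD, n = 3 each), and the log2 fold changes of the 5 were 2.55 to 4.50 in cyp78a5,7 and 0.01 to 0.68 in amp1-13. Such a pattern was common among the candidates, as 375 of the 1761 had r above 0.9 with RAP2.6. The candidates had been picked to differ between genotypes, so this share does not hold for probe sets in general.

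For RAP2.6L the 5 highest were AT4G37710, which encodes a VQ motif protein, AT2G44380, the glucosyltransferase gene UGT85A1, the transcription factor gene HRS1 and the cytokinin-degrading CKX4, with r between 0.963 and 0.982. UGT85A1 had signals of 397 ± 198 in cyp78a5,7, 284 ± 52.6 in amp1-13 and 92.4 ± 20.5 in wild type (SD, n = 3 each). The log2 fold changes of the 5 were 1.29 to 1.96 in cyp78a5,7 and 0.91 to 1.44 in amp1-13, and 40 candidates had r above 0.9. All 10 genes named here were highest on cyp78a5,7 array 3 and lowest on array 1, as RAP2.6 and RAP2.6L were, an order that choosing them by likeness over the same arrays largely fixes. Of the 10, AT5G05600 and AT2G44380 were named by the annotation and the other 8 through the list of changed genes. RAP2.6 and RAP2.6L correlated with each other at 0.717, which placed RAP2.6L 770th among the genes like RAP2.6 and RAP2.6 502nd among those like RAP2.6L. AT4G37710 and CKX4 had mean wild type signals of 3.22 and 8.23 and TAT3 of 4.65, below the offset, so the size of their changes depends on it.

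**Figure D4:**
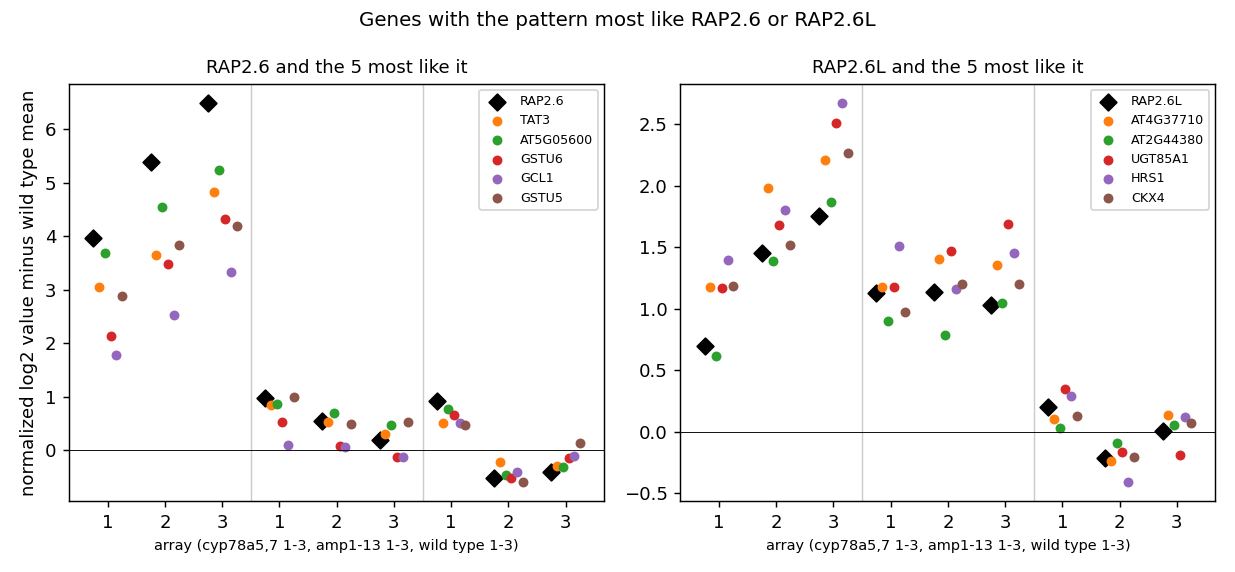
Normalized log2 values minus the wild type mean (vertical axes) on the 3 arrays each of cyp78a5,7, amp1-13 and wild type (horizontal axes, replicate numbers, separated by grey lines) for RAP2.6 and RAP2.6L (black diamonds) and the 5 genes most like each (coloured points). The genes were picked for likeness on these arrays, so the patterns shown, with the RAP2.6 group apart on the cyp78a5,7 arrays and the RAP2.6L group above wild type on all 6 mutant arrays, follow from the choice.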

How the data were processed

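Gene expression of whole seedlings was measured on Affymetrix ATH1 arrays. The deposited values are MAS5 signal intensities, scaled by the authors to a mean of 100.01 on each array once the extreme 2% at either end are trimmed. The lowest signal was 0.0121, and the MAS5 version is not given in the sources used here. The study's own results came from RMA of the raw arrays, which were not analysed here.

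Of 22810 probe sets 64 controls were removed, and 22746 were tested. To the signal 16 was added before the log2, and arrays were quantile normalized. limma 3.58.1 in R 4.3.3 was fitted to the 9 arrays with genotype as the only term (6 residual and 2.69 prior degrees of freedom). Two-sided p-values were adjusted by Benjamini-Hochberg across the 22746 probe sets, separately for each contrast, and a call required an adjusted p under 0.05 together with 2-fold. The annotation named 1 gene for 13513 probe sets, the study's list of changed genes a further 820, and 503 had several genes and 7910 no name. The values of that list were not used.

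The members and gene lists were chosen with earlier results of these data known. Named in the text were both members, all named genes of the group X and HD-ZIP III lists, called members of the other lists (up to 5 by size in each mutant, and 4 more named because their count was small), ERF4 and CLV3, chosen after their values had been seen, and the 5 genes most like each member. The fit was tested on simulated data with known changes. Plots used matplotlib 3.10.9 and Python 3.11.15. Alternatives covered scaling, offset, filter, variance model, fits of 2 genotypes, the replicate number as a block and leaving out each array, with normalization repeated on the arrays kept. Precision is limited by 3 arrays for each genotype, and cross-hybridization between related genes was not tested. Sequences were not used here.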

Additional observations from a re-analysis of the deposited data

How the results depend on the processing

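With no offset the log2 fold change in cyp78a5,7 was 7.76 for RAP2.6 and 1.71 for RAP2.6L, and with an offset of 64 it was 3.78 and 0.78, and 3.58 for RAP2.6 between cyp78a5,7 and amp1-13. RAP2.6L in amp1-13 lost its call with no offset (1.48, adjusted p = 0.0509 from limma) and with an offset of 64 (0.63, adjusted p = 0.0515 from limma). Leaving out 1 array gave RAP2.6L 0.99 to 1.20 in amp1-13, and -0.0236 (without cyp78a5,7 replicate 3) to 0.51 between the mutants. RAP2.6 in amp1-13 was called under no alternative, with 0.20 to 2.2 and adjusted p of 0.312 to 0.884 from limma, and with 1.05 without wild type replicate 1. An offset of 64 left 774 called probe sets in cyp78a5,7, against 1596 as reported, and 242 in amp1-13, against 591. With arrays removed the amp1-13 number ranged between 326 (wild type replicate 3) and 923 (wild type replicate 2), and was 389 and 383 without amp1-13 replicates 1 and 2. With the replicate block RAP2.6L in amp1-13 kept its log2 fold change of 1.10 (adjusted p = 0.0448 from limma), and 579 probe sets were called. Same-numbered arrays deviated together at r = -0.119 to 0.161 and others at -0.174 to 0.247, and 5 of 9 arrays correlated best with their own number. Since these ranges overlap, they do not show whether the numbers pair samples. Of the 5 genes most like RAP2.6 and RAP2.6L, 2 and 4 were the same with no offset. The promoter and protein comparison that had been planned was not run. The cause of these shifts was not tested beyond the construction of each alternative.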
